A study of Mus musculus with 6 samples.

Results

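In mouse embryonic stem cells, 1366 of the 2895 chromatin boundaries found in cells with wild-type CTCF (47.2%) had no counterpart in cells whose CTCF lacked zinc finger 8, and these 1366 WT-only boundaries are described here. The other 1529 WT boundaries were shared with the mutant cells, which had 2212 boundaries in all, 683 of them absent from WT. The share depended on coverage. Chosen again without bins poorly covered in any library (the strict screen below), WT-only boundaries were 504 of 1460 (34.5%). A boundary was a 50 kb bin in which contact across the bin dipped locally. The measure was the insulation score, log2 of the mean contact between the 500 kb before and the 500 kb after a bin over the chromosome's mean, so a lower score means less contact across. A dip counted when its prominence, its depth against the flanking rises, was 0.2 or more, and a WT boundary counted as WT-only when no Del8 boundary lay within 50 kb. The members were thus chosen by the difference between WT and Del8, and their scores in that contrast are a description. Boundaries were also chosen on some libraries and tested in others. Only in those held-out tests did the tested libraries have no part in the boundary calls. The coverage screen of bins used all 6 libraries there too.

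The data were in-situ Hi-C maps, which count how often pairs of DNA segments are ligated to each other inside crosslinked nuclei, of ES cells of strain 129 cut with MboI. Of the 6 libraries, 3 were labelled wild type (WT) and 3 carried the genotype GFP-CTCF-Del8 (Del8), a GFP-tagged CTCF without zinc finger 8. The series' text speaks of GFP-CTCF and of biological replicates, and the labels do not settle whether the WT libraries carry the GFP tag or how many clones each genotype comprises. Hi-C measures no expression, so the ES cell label was not checked against marker genes.

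CTCF is a DNA-binding protein with a row of zinc fingers, of which the central ones read the core of its motif and the outer ones contact flanking bases. It stops the loop-extruding cohesin complex, and a stop of this kind appears in a contact map as a boundary between neighbouring domains. Boundaries in stem cells often also coincide with active promoters, and domain borders are known for limiting the reach of enhancers.

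The bins are too wide to show single CTCF sites, so the sequences shown are gene promoters inside WT-only boundaries that hold the core of the CTCF motif, searched on both strands and spelled CCA, any 2 bases, AG, any 2 bases, GGC. RefSeq promoters (build GRCm38.p6, from 250 bases before to 50 bases after a transcription start) were matched by position to the bins: 965 promoters started in 507 of the 1366 boundaries, and 32 of them (3.32%) held the core. At shared boundaries 56 of 1797 promoters (3.12%) held it, and 776 of all 31396 autosomal promoters (2.47%) did. Promoters at WT-only and at shared boundaries thus held the core at nearly the same rate. Among WT-only boundaries with good coverage, defined in the paragraph on coverage, these 4 promoters with the core lay at the largest differences between WT and Del8. They belong to Memo1, which codes for a mediator of cell motility (chr17:74294814-74295113, minus strand), the predicted gene Gm29873 (chr11:95687223-95687522, minus strand), Sycp2, a component of the synaptonemal complex (chr2:178407609-178407908, minus strand), and Actrt3, an actin-related protein (chr3:30599821-30600120, minus strand). Capitals mark the match, which is a description of letters and not a measured binding site.
Memo1: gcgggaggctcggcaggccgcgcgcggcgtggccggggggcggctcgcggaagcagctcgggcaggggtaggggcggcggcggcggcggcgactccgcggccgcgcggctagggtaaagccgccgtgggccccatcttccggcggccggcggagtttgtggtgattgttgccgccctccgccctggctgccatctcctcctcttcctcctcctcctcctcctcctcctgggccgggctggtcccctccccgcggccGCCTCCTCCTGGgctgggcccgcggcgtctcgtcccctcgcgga
Gm29873: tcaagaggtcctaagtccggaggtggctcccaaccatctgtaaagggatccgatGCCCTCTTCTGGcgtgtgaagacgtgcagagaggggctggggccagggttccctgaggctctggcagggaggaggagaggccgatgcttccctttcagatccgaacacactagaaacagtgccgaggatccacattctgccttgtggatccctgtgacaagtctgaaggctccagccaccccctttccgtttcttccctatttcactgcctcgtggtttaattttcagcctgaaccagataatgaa
Sycp2: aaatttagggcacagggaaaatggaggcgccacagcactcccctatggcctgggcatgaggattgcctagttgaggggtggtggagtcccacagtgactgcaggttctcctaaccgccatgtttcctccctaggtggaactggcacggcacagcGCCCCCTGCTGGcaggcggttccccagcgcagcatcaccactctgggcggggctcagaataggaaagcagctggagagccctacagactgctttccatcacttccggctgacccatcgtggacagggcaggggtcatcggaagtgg
Actrt3: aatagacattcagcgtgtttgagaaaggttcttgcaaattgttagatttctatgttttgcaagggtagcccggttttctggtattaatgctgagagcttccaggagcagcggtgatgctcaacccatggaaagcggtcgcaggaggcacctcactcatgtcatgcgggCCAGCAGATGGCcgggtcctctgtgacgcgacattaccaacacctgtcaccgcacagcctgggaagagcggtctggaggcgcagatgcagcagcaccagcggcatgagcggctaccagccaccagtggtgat

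The matches in the promoters of Memo1, Gm29873 and Sycp2 were on the reverse strand of the printed sequence and that of Actrt3 on the forward strand. The match of Memo1 began 7 bases after the transcription start and that of Actrt3 82 bases before it. The 3 WT libraries scored -1.21, -1.10 and -1.07 at the bin of Memo1 and the 3 Del8 libraries -0.59, -0.57 and -0.55, here and elsewhere listed in the order of the replicates. At Actrt3 the WT scores were -0.39, -0.37 and -0.36 and the Del8 scores -0.06, -0.0096 and 0.03. At Gm29873 they were -0.49, -0.38 and -0.48 for WT, with 0.0091, -0.02 and 0.02 for Del8. At Sycp2 the WT scores were -0.12, -0.08 and 0.21 and the Del8 scores 0.48, 0.45 and 0.47. The WT libraries thus disagreed at Sycp2, where replicate 3 was above the chromosome's mean. All WT libraries lay below all Del8 libraries in each of the 4 bins, beside 34.3% of all bins under the strict screen described below. The 4 were taken for their large differences, so this follows from the choice.

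Coverage separated the WT libraries from each other before any comparison of scores. Total contacts were 24038030, 24512722 and 36233407 for WT replicates 1 to 3, and for Del8 replicates 1 to 3 they were 66266759, 46925260 and 38088173. Contacts per bin were scaled to the well-covered bins of each library. The 6 scaled coverages of a bin were ranked from the highest, and the value at rank 3 was its reference. A bin was short in a library when its scaled coverage was under 0.5 of this reference and the reference was above 0.1. WT replicates 1 and 2 were short in 36.5% and 36.7% of autosomal bins, Del8 replicate 3 in 8.94%, WT replicate 3 in 0.0104% and the other Del8 libraries in none. WT-only boundaries lay in such bins more often than shared ones: 727 (53.2%) were short in WT replicate 1 or 2, against 412 shared boundaries (26.9%).

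A WT-only boundary was called well covered when its own bin and at least 80% of the 21 bins around it met 2 conditions. Such bins were short in no library and had a scaled coverage above 0.1 in each library. This left 446 boundaries (32.7%) and set apart 920 others. At the 446, median scaled coverage was 1.10, 1.14 and 1.12 in WT and 1.12 in each Del8 library. At the 920 it was 0.0788 and 0.0708 in WT replicates 1 and 2, 0.521 in WT replicate 3, and 0.513, 0.509 and 0.496 in Del8. The part of this loss of contacts in the WT-only calls was not tested, and values are given for both classes.

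**Figure D1:**
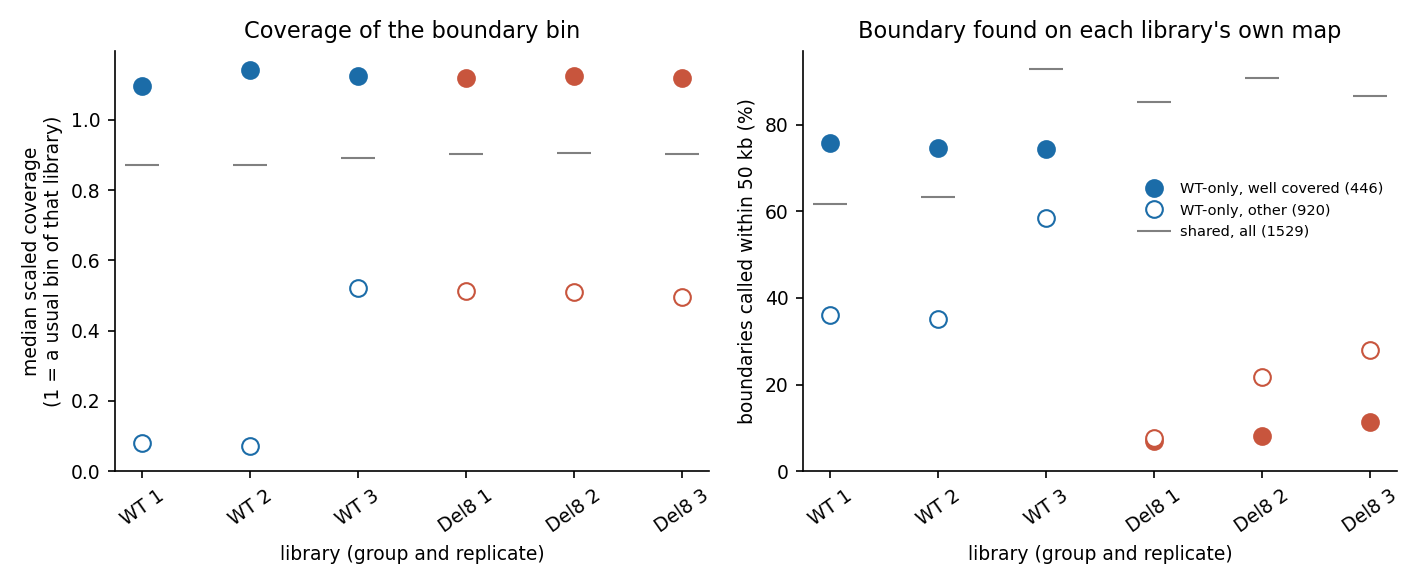
Left, median scaled coverage of the boundary bin (1 is a usual bin of that library) for each library; right, the percentage of boundaries found within 50 kb on that library's own map. Filled circles are the 446 well-covered WT-only boundaries, open circles the 920 others, grey lines all 1529 shared boundaries, blue is WT and red is Del8. Coverage of the open circles falls to 0.0788 and 0.0708 in WT replicates 1 and 2, while the filled circles stay between 1.10 and 1.14 in the 6 libraries.

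At a typical WT-only boundary the dip of WT cells was nearly level in Del8 cells. On the maps summed over the libraries of a group, the median score over all 1366 was -0.36 in WT and -0.06 in Del8, and over the 446 well-covered ones -0.41 and -0.12. The median difference, Del8 minus WT, was 0.29 over all and 0.26 over the well-covered boundaries, or 1.20-fold more contact across them on this relative scale. The score was higher in Del8 at 1251 boundaries (91.6%), beside 53.5% of all 44590 bins with a score. Among the well-covered it was higher at 416 of 446 (93.3%), beside 59.4% of well-covered bins. These directions follow from how the boundaries were chosen.

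WT-only boundaries were the shallower part of the WT boundaries. Their median prominence in WT was 0.445, with an interquartile range of 0.288 to 0.835, against 0.925 at shared boundaries. It was 0.5 or more at 616 of them (45.1%), compared with 1174 shared boundaries (76.8%). A remnant was common: 767 WT-only boundaries still had a Del8 minimum within 50 kb, but one under the prominence limit, and 599 (43.9%) had none. At 129 (9.44%) the remnant reached 0.15 or more. The prominence was lower in Del8 by at least 0.2 at 1185 boundaries (86.7%).

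Single boundaries near the limits show how fine the division was. A WT-only boundary at chr11:90200001-90250000 had a WT prominence of 0.2002 and a dip at chr7:53400001-53450000 missed the limit with 0.1999. At chr12:103350001-103400000 the Del8 prominence of 0.1996 made a WT boundary WT-only, and at chr4:57300001-57350000 a Del8 prominence of 0.2003 made one shared. No Del8 boundary was nearer than 100 kb by construction, and 165 WT-only boundaries (12.1%) had one at exactly that distance. For 584 (42.8%) the nearest Del8 boundary was 250 to 500 kb away and for 327 (23.9%) 550 kb or more.

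**Figure D2:**
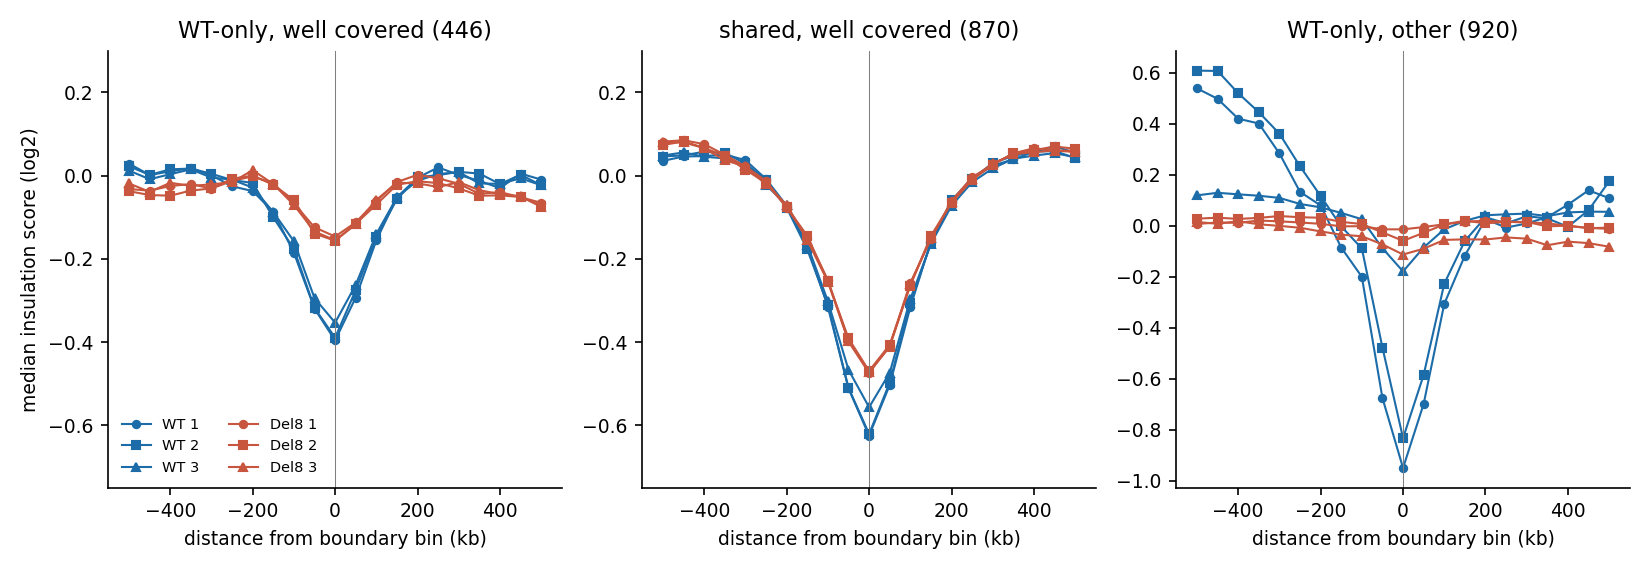
Median insulation score (log2) against distance from the boundary bin in kb, 1 line per library, for the 446 well-covered WT-only boundaries, 870 well-covered shared boundaries and 920 other WT-only boundaries; the third panel has its own vertical scale. At distance 0 the first panel reads -0.40, -0.39 and -0.35 in WT and -0.15, -0.16 and -0.16 in Del8, and in the third panel only WT replicates 1 and 2 drop to -0.95 and -0.83.

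Library by library, the well-covered boundaries gave the same level within each group. Scores here were computed on bins short in no library and with a scaled coverage above 0.1 in each (the strict screen). The WT libraries had median scores of -0.40, -0.39 and -0.35 at the 446, and the Del8 libraries of -0.15, -0.16 and -0.16. At 250 kb on either side the medians of the libraries lay between -0.03 and 0.02, near the chromosome's mean. At 870 well-covered shared boundaries the medians were -0.63, -0.62 and -0.56 in WT and -0.47 in each Del8 library. In every Del8 library, shared boundaries thus kept a deeper dip than WT-only boundaries had in any WT library.

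At the 920 other boundaries the WT libraries disagreed. Here WT replicates 1 and 2 had median scores of -0.95 and -0.83, WT replicate 3 had -0.18, and the Del8 libraries had -0.01, -0.06 and -0.11. WT replicate 3 had no short bins among them and lay nearer to the Del8 libraries than to its own group. With bins of as few as 20 contacts kept, as the choice of members did, scores in WT replicates 1 and 2 reached -115 and fell below -3 at 123 and 130 boundaries.

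Calls on each library's own map are a description, since the same libraries were summed for the choice. Of the 446 well-covered boundaries, 75.8%, 74.7% and 74.4% were found within 50 kb in the WT libraries, against 6.95%, 8.07% and 11.4% in the Del8 libraries. Shared boundaries with good coverage were found in 81.0% to 95.4% of cases in single libraries. A set of 159 well-covered boundaries (35.7%) was found in all 3 WT libraries and in no Del8 library, against 0 of 870 well-covered shared boundaries. Of the 920 others only 34 met this mark, and 110 were found in no WT library taken alone.

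How often the groups overlapped at well-covered boundaries depended on the screen. Under the strict screen every Del8 library lay above every WT library at 345 of the 446 (77.4%), beside a percent called of 34.3 over all 22056 bins, and below at 21 (4.71%), beside 32.7. Under the looser screen used for the choice, every Del8 library lay above every WT library at 200 of the 446 (44.8%), beside 21.8% of well-covered bins. In the strict screen the counts at shared well-covered boundaries were 473 above and 108 below of 870. Above WT replicate 3 alone, the WT library with the most contacts, all strict-screen scores of the Del8 libraries lay at 355 boundaries (79.6%), beside 42.7. In limma on 6 libraries, adjusted by Benjamini-Hochberg over 22056 bins, 397 of the 504 WT-only boundaries chosen under the strict screen were called higher in Del8 (background 32.3%) and 14 lower (background 30.5%). The same contrast chose these boundaries, so the calls are not evidence for them. Under the looser screen limma called 0 of 862 boundaries in either direction (background 0%), and 142 had an unadjusted p under 0.05.

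To test the loss where it had not been used for the choice, WT-only boundaries were chosen on 1 replicate number alone and measured in the other 4 libraries. Boundaries lost in 1 pair of libraries were shallower in Del8 in the others too. Chosen on replicate 1 under the strict screen, 544 boundaries had mean scores of -0.36 and -0.32 in WT replicates 2 and 3 and -0.13 and -0.14 in Del8 replicates 2 and 3. The difference was 0.20, against 0.10 at 971 shared boundaries and 0.02 over all bins. Choices on replicate 2 (552 boundaries) and replicate 3 (457) gave differences of 0.21 and 0.25. Held-out WT and Del8 libraries did not overlap in any of the 3 choices (two-sided exact permutation test, p = 0.333 each). This is the smallest p that 2 libraries against 2 can give, so this test could not pass a threshold of 0.05. The library means at shared boundaries and over all bins did not overlap either. Lack of overlap was thus not particular to WT-only boundaries.

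Single boundaries were tested in the same held-out libraries by limma with adjustment over 22056 bins. Chosen on replicate 1, 369 of 544 boundaries (67.8%) rose in Del8 and 14 fell, while 27.1% of all bins rose and 24.8% fell. Chosen on replicate 2, 378 of 552 (68.5%) rose and 17 fell, beside 26.7% and 24.3% of all bins. Chosen on replicate 3, 346 of 457 (75.7%) rose and 7 fell, beside 30% and 27.2%. Shared boundaries of the same 3 choices rose in 408 of 971, 392 of 954 and 493 of 948 cases. About 46% of the boundaries chosen this way belonged to the 1366: 252, 249 and 210. The 3 choices share libraries and neighbouring bins share contacts, so the counts are not independent of each other.

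Under the looser screen the same test gave another picture. Chosen on replicates 1 and 2, limma called 0 of 1975 and 0 of 1875 boundaries in either direction (background 0%), with 8 and 9 at an unadjusted p under 0.05. Chosen on replicate 3 and tested in WT replicates 1 and 2, 204 of 752 boundaries rose and 254 fell, beside 25.8% and 39.6% of all bins. The held-out differences there were 1.59, 1.42 and 1.70, against 1.78, 1.29 and 2.28 at shared boundaries, and over all bins they were 0.94, 0.78 and 1.66. Shared boundaries thus differed more than WT-only ones in the choices on replicates 1 and 3.

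**Figure D3:**
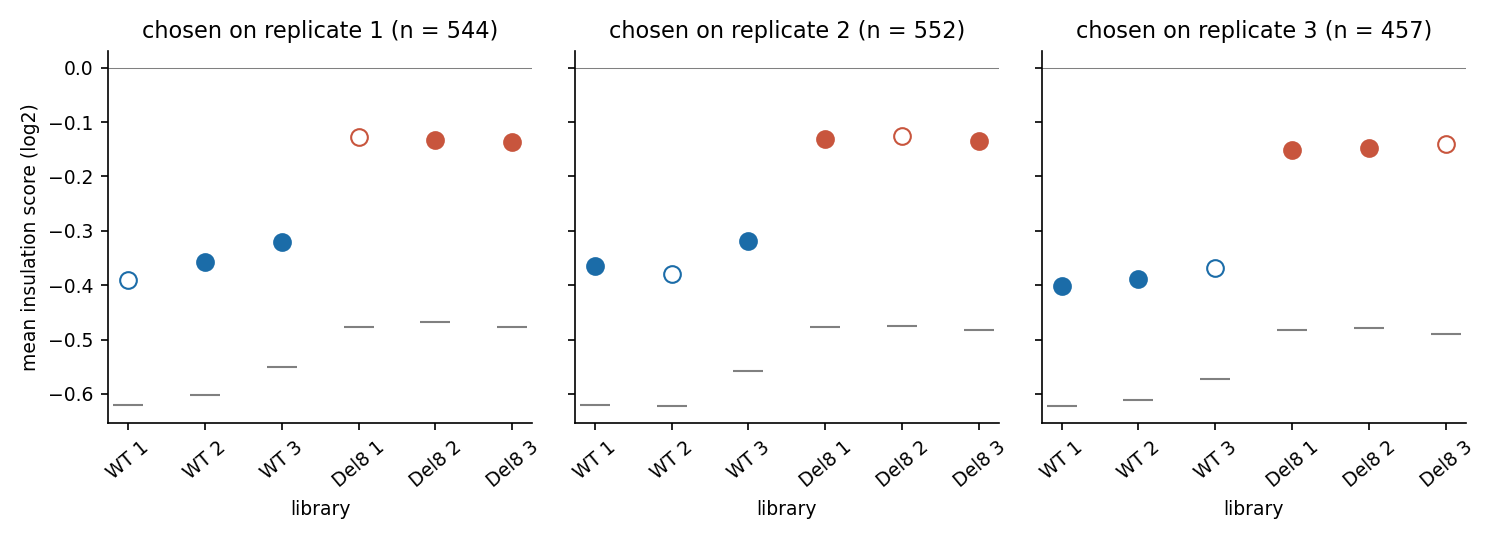
Mean insulation score (log2) per library of WT-only boundaries chosen on replicate 1, 2 or 3 alone under the strict screen. Open circles are the libraries used for the choice, filled circles the held-out ones, grey lines the mean at shared boundaries of the same choice, blue WT and red Del8. Filled WT circles lie between -0.40 and -0.32 and filled Del8 circles between -0.15 and -0.13.

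Contact across the 446 well-covered boundaries was higher in Del8, most of all at short range. The contact of pairs of bins placed evenly around the boundary was set over the chromosome's mean for their separation (observed over expected). At 100 to 500 kb the WT libraries had 0.668, 0.675 and 0.693 of the expected contact, and the Del8 libraries 0.816, 0.808 and 0.814, a 1.20-fold ratio of the means (0.679 ± 0.0128 and 0.813 ± 0.00431, SD, n = 3 each). From 600 to 1000 kb the means were 0.812 ± 0.0143 in WT and 0.915 ± 0.00607 in Del8, 1.13-fold. From 1100 to 2000 kb they were 0.819 ± 0.00678 and 0.844 ± 0.00465, 1.03-fold. Del8 was thus closer to the chromosome's mean than WT in each band, and below it.

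Contact on 1 side of the boundary went the other way. Between bins of the same flank 100 to 450 kb apart, WT libraries had 1.06, 1.06 and 1.05 of the expected contact and Del8 libraries 0.987, 0.987 and 0.988. Shared boundaries had smaller differences: 1.09-fold across them at 100 to 500 kb and 0.973-fold within a flank. In these bands the groups did not overlap at either kind of boundary. The bands follow from the contrast that chose the boundaries and are given without a test.

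**Figure D4:**
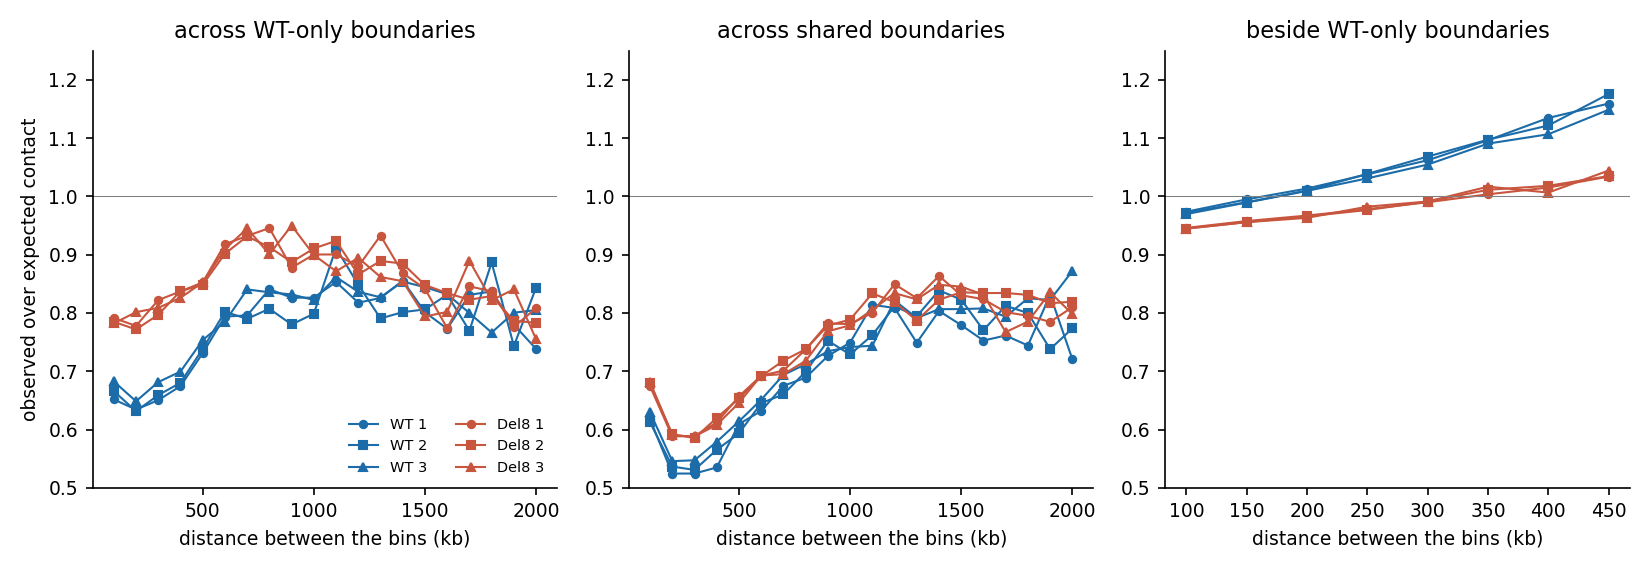
Observed over expected contact against the distance between bins in kb, 1 line per library, across the 446 well-covered WT-only boundaries, across 870 shared boundaries, and between bins on the same side of the WT-only boundaries. Blue is WT and red is Del8, and 1 is the chromosome's mean at that distance. Across WT-only boundaries the WT lines start at 0.652 to 0.683 at 100 kb and the Del8 lines at 0.782 to 0.791.

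The largest difference among well-covered boundaries lay at Kcmf1, which codes for an E3 ubiquitin ligase (chr6:72850001-72900000, build mm10, with the transcription start of the gene in the bin). WT libraries had strict-screen scores of -0.68, -0.53 and -0.56 there, and Del8 libraries of 0.31, 0.29 and 0.28. WT thus had a dip where every Del8 library was above the chromosome's mean. The difference of the means was 0.88 (-0.59 ± 0.08 and 0.29 ± 0.01, SD, n = 3 each), a 1.84-fold contact across the bin. The bin held 1268, 1227 and 1589 contacts in WT and 3085, 2295 and 1869 in Del8, which is a scaled coverage of 0.944 to 1.10 in the 6 libraries.

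Of the other 9 of the 10 largest differences with good coverage, 5 lay at bins with protein-coding gene starts. The bin of Khdc3, a factor of oocytes and early embryos, and of Rsl24d1, which acts in ribosome assembly (chr9:73100001-73150000), scored -1.07, -1.05 and -1.02 in WT and -0.33, -0.29 and -0.35 in Del8. At Rab12, a small GTPase of membrane traffic (chr17:66500001-66550000), the scores were -1.20, -1.17 and -1.12 against -0.43, -0.41 and -0.38. Both dips were shallower but still below 0 in each Del8 library. The bin of Npr1, a natriuretic peptide receptor, Ilf2, an RNA-binding protein, and Snapin, a SNARE-associated protein (chr3:90450001-90500000), went from -1.12 ± 0.08 to -0.36 ± 0.05 (SD, n = 3 each).

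At Ndufc1, a subunit of respiratory complex I, and Naa15, the auxiliary subunit of an N-terminal acetyltransferase (chr3:51400001-51450000), the scores were -1.31, -1.27 and -1.34 in WT and -0.56, -0.54 and -0.56 in Del8. This boundary met the rule by a narrow margin, with prominences of 0.216 in WT and 0.197 in Del8. On single maps it was found in 1 WT library and 2 Del8 libraries, and the boundary at Npr1 in 1 of each. The bin of Atat1, the acetyltransferase of alpha-tubulin, Mrps18b, a mitochondrial ribosomal protein, and Ppp1r10, a regulatory subunit of protein phosphatase 1 (chr17:35900001-35950000), went from -0.89 ± 0.08 to -0.21 ± 0.05. The other 4 of the 10 largest differences had no protein-coding gene start: chr11:23950001-24000000, chr2:116800001-116850000, chr8:72650001-72700000 and chr6:128450001-128500000. Their strict-screen differences ranged from 0.56 to 0.70. In all 10 bins each Del8 library was above each WT library, beside 34.3% of all bins under the strict screen. The 10 were ranked by this same contrast, so their separation follows from the choice.

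**Figure D5:**
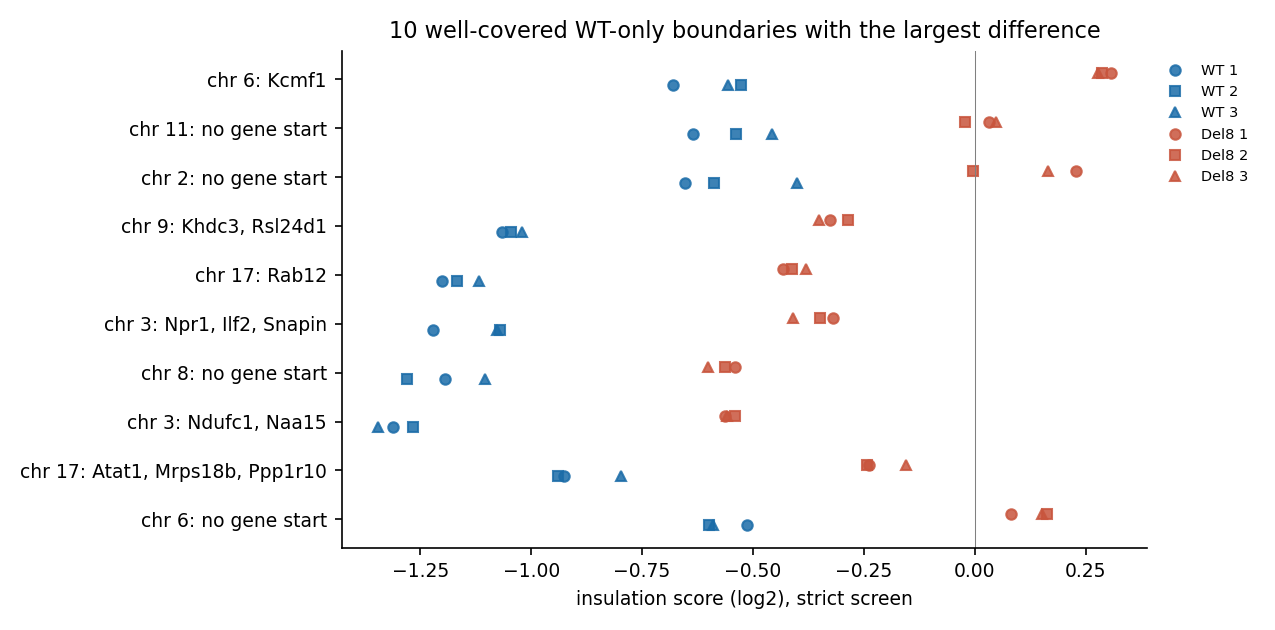
Insulation score (log2) under the strict screen in each of the 6 libraries at the 10 well-covered WT-only boundaries with the largest difference between the summed maps, named by chromosome and by the protein-coding genes that start in the bin. Blue symbols are WT, red symbols Del8, and the symbol's shape gives the replicate. Red symbols lie right of blue ones in each row, with Kcmf1 from -0.53 or less to 0.28 or more.

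Without the condition on coverage the largest differences were 3.18 to 1.79, all in poorly covered surroundings. The largest lay at chr17:6700001-6750000, in a bin without a gene start whose own scaled coverage was 0.645 to 0.745, while 28.6% of its 21 surrounding bins passed the strict screen. At Gm8267 (chr14:44700001-44750000, difference 2.91) the bin held 33 and 49 contacts in WT replicates 1 and 2, 477 in WT replicate 3, and 923, 541 and 97 in Del8. At Zfp808, a zinc finger gene (chr13:62100001-62150000, difference 2.04), it held 130, 107 and 592 contacts in WT and 1095, 694 and 607 in Del8. The remaining 2, at Trim43b (chr9:89050001-89100000) and Mrgpra4 (chr7:47950001-48000000), differed by 2.73 and 1.79. No strict-screen score exists for these 5 bins.

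Of 23 bins with the start of a pluripotency gene, 1 was a WT-only boundary (4.35%, beside 3.06% of all bins with a score). It held Dppa3, a maternal factor also active in naive stem cells, Gdf3, a ligand of the TGF-beta family, and Apobec1, a cytidine deaminase (chr6:122600001-122650000). Its strict-screen scores were -0.72, -0.56 and -0.49 in WT and -0.01, 0.05 and -0.01 in Del8, without overlap. Of 12 bins with genes of DNA methylation and 16 with genes of CTCF and cohesin, none was a WT-only boundary, while 2 and 1 were shared boundaries. The 4 bins of two-cell-like genes and the 6 of fibroblast genes held none either.

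Lineage and cluster genes gave single cases. Elf5, a trophectoderm transcription factor (chr2:103400001-103450000), was at 1 of 10 trophectoderm bins and had a mean WT score of -0.44 ± 0.02 and a mean Del8 score of -0.22 ± 0.02 (SD, n = 3 each). Neurog2, a proneural transcription factor (chr3:127600001-127650000), was at 1 of 10 neural bins, with scores of -0.03, 0.02 and 0.06 in WT and 0.30, 0.36 and 0.31 in Del8. Under the strict screen this bin was therefore near the chromosome's mean in WT. The boundary at Dab2, an endocytic adaptor of primitive endoderm (chr15:6250001-6300000), was poorly covered, with 87 and 37 contacts in WT replicates 1 and 2. The HoxB bin with the starts of Hoxb6, Hoxb7, Hoxb8 and Hoxb9, which pattern the body axis (chr11:96250001-96300000), was the only one of 13 Hox bins. It scored -0.42, -0.46 and -0.44 in WT and -0.22, -0.29 and -0.28 in Del8.

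Of 15 bins with the start of a clustered protocadherin gene (alpha, beta or gamma), adhesion molecules encoded side by side, 1 was a WT-only boundary. It lay in the gamma cluster (chr18:37700001-37750000, from Pcdhga6 to Pcdhga10). Scores there were -0.57, -0.52 and -0.40 in WT and 0.02, -0.02 and 0.06 in Del8. Among 33 bins of imprinted genes 2 were WT-only boundaries. The bin of Phlda2, which restrains placental growth (chr7:143500001-143550000), went from -0.41 ± 0.03 to -0.16 ± 0.04 (SD, n = 3 each). At Zrsr1, an imprinted splicing factor gene, and Commd1 (chr11:22950001-23000000) the scores were -0.29, -0.27 and -0.23 in WT and -0.23, -0.24 and -0.21 in Del8, and here the groups overlapped.

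Ribosomal protein genes started in 5 WT-only boundaries among 72 bins (6.94%, beside 3.47% of bins with a protein-coding gene start), and in 12 shared ones. The bin of Rpl8 with Zfp647 (chr15:76900001-76950000) went from -0.66 ± 0.06 to -0.27 ± 0.01, and that of Rpl18 (chr7:45700001-45750000) from -0.96 ± 0.11 to -0.78 ± 0.0043. In contrast, the bin of Rpl23 (chr11:97750001-97800000) scored -0.29, -0.39 and -0.32 in WT and -0.33, -0.36 and -0.31 in Del8, with overlap. The bins of Rps12 and Rps27a had no strict-screen score.

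Olfactory receptor genes were in 12 WT-only boundaries among 561 bins (2.14%), and only 1 of these was well covered. That bin, with Olfr543, Olfr544 and Olfr545 (chr7:102450001-102500000), scored -0.72, -0.60 and -0.60 in WT and -0.25, -0.19 and -0.15 in Del8. Zinc finger genes of the Zfp series were in 10 of 307 bins (3.26%), 5 of them well covered. At Zfp930 (chr8:69200001-69250000) the score went from -0.50 ± 0.14 to 0.09 ± 0.09 (SD, n = 3 each). At Zfp459 (chr13:67400001-67450000), outside the well-covered class, the summed maps differed by 0.12, while the strict-screen scores of 0.71, 0.75 and 0.61 in WT and 0.63, 0.55 and 0.62 in Del8 overlapped and had the opposite sign of difference.

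Well-covered WT-only boundaries held gene starts more often than other well-covered bins did, a difference given here without a test. A protein-coding gene started in 272 of the 446 (61.0%), against 41.7% of well-covered bins. It was 67.1% of shared and 58.2% of Del8-only boundaries with good coverage. At least 3 genes started in 10.8% of the 446, against 5.66% of well-covered bins. For shared and Del8-only boundaries with good coverage this was 13.4% and 10.5%, so neither trait was particular to WT-only boundaries. Of the 920 other boundaries 19.3% held a gene start, near the 17.9% of other bins. No gene at all overlapped 66 of the 446 (14.8%) and 535 of the 920 (58.2%). A lncRNA gene started in 33.4% of the well-covered boundaries, against 31.5% of well-covered bins. A tRNA gene lay in 7 of the 446 (1.57%), against 0.471% of well-covered bins. It was 1.03% of shared and 0% of Del8-only boundaries with good coverage.

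All autosomes held WT-only boundaries. Their share of WT boundaries ran from 38.6% on chromosome 11 to 56.9% on chromosome 3, where 30.0% of bins were well covered, against 66.0% on chromosome 11. Among well-covered WT boundaries the share ran from 23.5% (19 of 81) on chromosome 4 to 40.4% (23 of 57) on chromosome 3. Chromosome 3 thus had the highest share in either count, in the second narrowly above chromosome 17 (23 of 58, 39.7%).

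Where a WT-only boundary was gone, Del8 domains were longer. Of the intervals between successive Del8 boundaries, 1023 (46.6%) held at least 1 WT-only boundary and had a median length of 1200 kb, against 800 kb for the 1170 without any. Most of the 1023 held a single one (766), while 204 held 2 and 53 held 3 or more. A longer interval has more room for a WT boundary, so the lengths are a description. The interval with the most, 8 on chromosome 5 from 83500001 to 86000000, had no well-covered one among them. An interval on chromosome 9 from 32250001 to 35550000 held 4, of which 2 were well covered.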

How the data were processed

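Each library's deposited file holds unnormalized contact counts between 50 kb bins, with 3 libraries per group. The submitters' processing notes name the build mm10. The aligner and read filters were not given in the sources used here. For the choice of boundaries, autosomal bins with 20 or more contacts in every library were kept (45645 of 47875). The 3 libraries of a group were scaled to equal totals and summed, and maps were balanced by iterative correction (ICE) per chromosome without the diagonal. Scores needed 50% of the 500 kb square usable. The strict screen left 27836 bins. The planned held-out tests were to use the looser screen, in which lost bins gave extreme scores in WT replicates 1 and 2, so the strict screen is given first. Boundary calling and limma were tested on simulated data. The simulated map had every bin usable, so it does not cover the lost bins of WT replicates 1 and 2. Scores were tested with limma 3.58.1 (R 4.3.3, trend; threshold 0.05 on the adjusted p), and other steps used numpy 2.4.6 and scipy 1.17.1. Named boundaries were the 10 largest differences with good coverage, the 5 largest of all, bins with the start of a list gene, and cases next to the limits. Promoters were chosen after their values were seen. Members and gene lists were chosen with earlier results of these data known. Transcription starts came from RefSeq for 16457 of 20665 genes (79.6%), and otherwise the gene's lower coordinate was used. Contacts between chromosomes and chromosome X were not analysed here. Replicates are biological per the series' text. If they were technical, the p-values would measure only the spread between these samples.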

Additional observations from a re-analysis of the deposited data

How the results depend on the processing

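The number of WT-only boundaries and their median difference were 1366 and 0.29. Under the strict screen there were 504 with a median of 0.22, with libraries also thinned to the shallowest 503 with 0.22, with WT replicates 1 and 2 also left out 458 with 0.21, and the well-covered ones were 446 with 0.26. Of the 446, 325 (72.9%) were WT-only again under the strict screen and 166 (37.2%) with a 250 kb square. The median was 0.33 with that square, 0.25 and 0.34 at a prominence of 0.1 and 0.3, 0.65 without ICE, and 0.24 without both WT replicates 1 and 2 under the looser screen. Leaving out a library at a time gave 1231 to 1983 boundaries with medians of 0.25 to 1.05, the highest of both without WT replicate 3. The strict screen raised the share of boundaries with a gene start from 32.9% to 59.9%. Mean scaled coverage in WT replicates 1 and 2 was also set over the mean in the other libraries. The median of this ratio rose from 0.571 to 0.996. limma calls higher in Del8 were 0 of 862 under the looser screen. With a library left out they were 0, except without WT replicate 3, where 384 of 862 were higher and 211 lower. The share over all bins was not taken for this fit, so these counts cannot be read as particular to the boundaries. Under the strict screen they were 397 of 504 (14 lower), beside 32.3% of all bins higher and 30.5% lower. With each library centred on its median that screen gave 382 of 504 (18 lower), and no share over all bins was taken. Held-out calls higher in Del8 under the strict screen were 369, 378 and 346 (14, 17 and 7 lower). Under the looser screen they were 0, 0 and 204 (0, 0 and 254 lower), so calls lower in Del8 were the more frequent in the last. The shares over all bins are given with the held-out tests above. The mean held-out difference was above 0 in each choice under both screens, but so it was over all bins. Its sign was thus not particular to WT-only boundaries. Under the looser screen the Del8 mean was the higher at 69.9%, 73.2% and 49.5% of the boundaries. The shares were 62.4%, 60.9% and 49.4% at shared boundaries and 47.3%, 47.5% and 44.0% over all bins. Same-numbered libraries did not deviate together (correlations of -0.05, -0.02 and -0.09), so the numbers do not pair them. With a replicate block the looser screen gave 0 calls. In the held-out tests it gave 0, 0 and 153 higher, the last of 752 boundaries with 196 lower and no share over all bins taken. The strict screen with the replicate block gave 396 of 504 higher, beside 31.8% of all bins. In the held-out tests it gave 376 of 544, 381 of 552 and 346 of 457, beside 28%, 27.9% and 29.7%. Lower calls in these 4 fits were 13, 17, 18 and 7, beside 29.9%, 25.8%, 25.5% and 26.9% of all bins. The strict screen with thinning, with a single WT library, with centring or with the block, and the well-covered class, were alternatives chosen after seeing the data. Depth limits single libraries, whose median well-covered bin held 1294 to 2897 contacts.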
